A study of Homo sapiens with 4 samples.

Results

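The caspase family and gasdermin E were followed in BV-173 and SUP-B15, a pair of human Philadelphia chromosome-positive leukemia cell lines that express the BCR-ABL1 kinase, and the genes are CASP1, CASP2, CASP4, CASP6, CASP8, CASP9, CASP10 and GSDME. They were taken as every probe set whose platform annotation gives 1 of these symbols, which found 23 of the 22277 probe sets on the array and 8 of the 11963 genes with a symbol of their own. The 4 groups were BV-173 untreated, BV-173 treated with STI571 at 10 μmol/l for 16 h, SUP-B15 untreated, and SUP-B15 treated in the same way. STI571 is imatinib, an inhibitor of the ABL kinase, and both lines carry its target in both states. Each group is 1 array of total RNA from 1 cell line, so no value below has a replicate. The genes were proposed with their signals and responses in these arrays already known. Their values are therefore given as a description, without a test.

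Caspases are cysteine proteases that are made as inactive precursors and cut their substrates after aspartate. Initiator caspases are switched on by assembly, CASP8 and CASP10 at death receptors, CASP9 on the apoptosome that forms when cytochrome c leaves mitochondria, and CASP2 on the PIDDosome. Executioner caspases such as CASP6 are activated by cleavage and take the cell apart. CASP1 and CASP4 are inflammatory caspases, which act on inflammasome cargo and on gasdermins, and gasdermin E, the product of GSDME, forms pores in the membrane once an executioner caspase has cut it. The activity of these proteins is set by cleavage, which an RNA array does not measure.

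The deposited signals had array medians of 95.5 to 115. Changes are differences of log2(signal + 24.5), a scale that understates the change of dim probe sets, and 2-fold is a difference of 1 on it. To be kept, a probe set had to reach the array's median in at least 1 of the 4 arrays, which 17 of the 23 did, 10 of them in all 4 arrays. The other 6 had signals of 5.0 to 105.4 and belonged to CASP2, CASP4 and CASP10. All 8 genes kept at least 1 probe set, in several cases only through the arrays in which they were high. Of the B precursor markers, 7 of 9 had a probe set of their own, and CD79A, CD79B, PAX5, VPREB1 and DNTT lay above the median in all arrays, while MME and CD34 did so in SUP-B15 alone. Of the T cell (5 measured), myeloid (4) and NK cell (3) markers, 0 did so in all arrays. The treated BV-173 array stood apart in its 18S ribosomal RNA controls, with a mean signal of 2817 against 1513 to 1596 in the other arrays; the part of this in the BV-173 values below was not tested. In RNA from whole cultures, fewer cells of a type and less RNA per cell cannot be told apart.

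**Figure D1:**
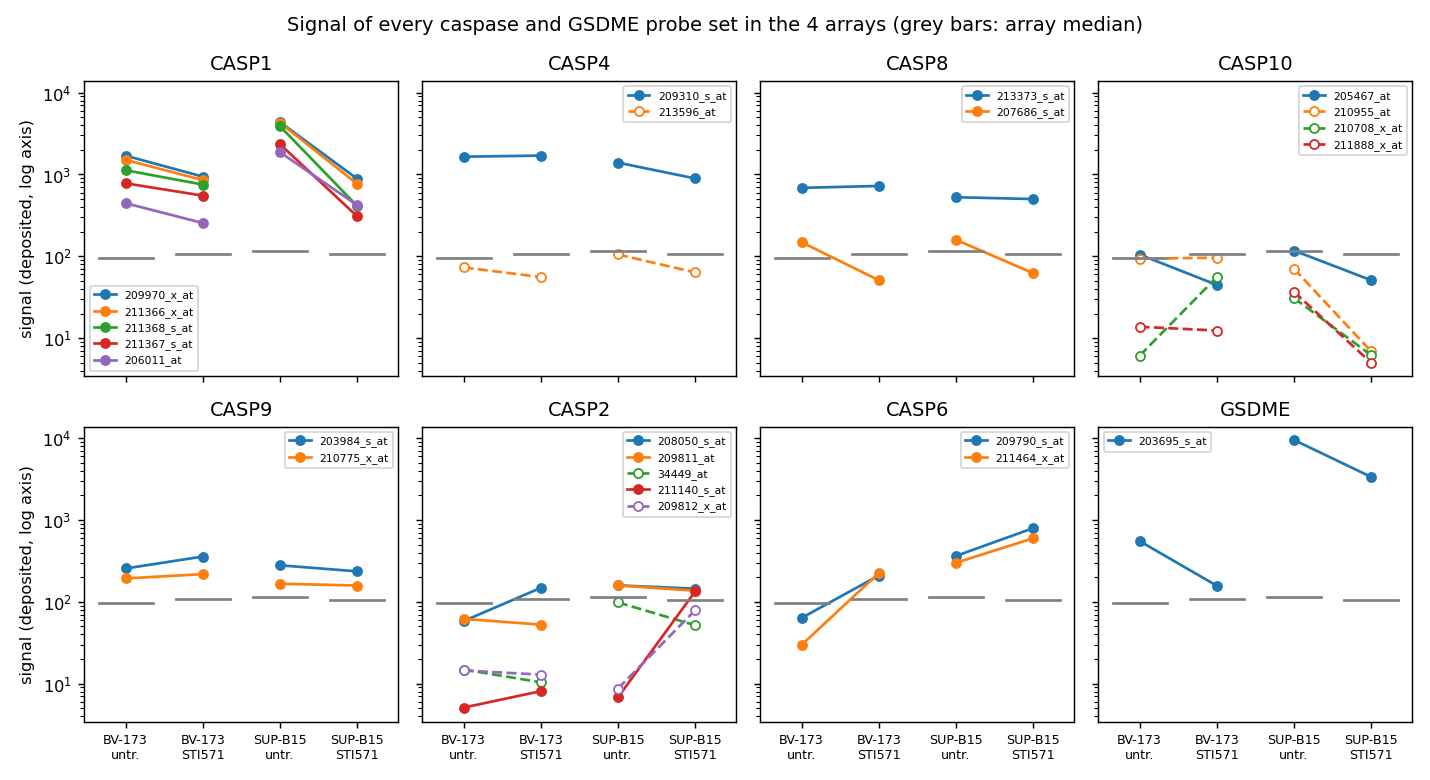
Deposited signal (vertical axis, logarithmic) of all 23 probe sets in the 4 arrays (horizontal axis), 1 panel per gene and 1 colour per probe set. Filled points with solid lines mark probe sets that were kept, open points with dashed lines those that were not, and grey bars each array's median signal. The 5 CASP1 lines slope down in both lines and most in SUP-B15, both CASP6 lines slope up, and GSDME in SUP-B15 lies far above GSDME in BV-173.

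CASP1, which matures interleukin-1 beta and interleukin-18, was lower after STI571 in both lines by each of its 5 probe sets, and the difference was several times larger in SUP-B15. The brightest probe set, 209970_x_at, went from 1699.9 without to 943 with STI571 in BV-173, and in SUP-B15 from 4374 to 887. Untreated SUP-B15 was thus the highest array and untreated BV-173 the next, with the treated arrays nearly level below them. Its log2 response was −0.83 in the first line and −2.27 in the second. Probe set 211366_x_at gave 1512, 855, 4300.2 and 770.1 in the order BV-173 untreated, BV-173 treated, SUP-B15 untreated, SUP-B15 treated.

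The other CASP1 probe sets repeated that order at the top and differed in how the treated arrays compared. 211368_s_at read 1128, 753, 3901 and 413, and 211367_s_at read 780.2, 552, 2350 and 309, so by both the treated SUP-B15 array was the lowest of the 4. 206011_at, the single CASP1 probe set without the maker's mark for shared probes, read 446.5, 255.4, 1875 and 423, and here treated BV-173 was the lowest. Over the 5 probe sets the treated signal was lower by 1.40-fold to 1.78-fold in BV-173 and by 4.25-fold to 8.98-fold in SUP-B15. The log2 response in SUP-B15 minus that in BV-173 ran from −2.60 to −1.34, a difference of single arrays that was not tested. The response of the brightest CASP1 probe set in SUP-B15 ranked 29 from the bottom among the 7916 genes compared.

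The CASP1 difference between the lines was present before treatment and small after it. Untreated SUP-B15 exceeded untreated BV-173 by 2.55-fold to 4.03-fold over the 5 probe sets. In the treated arrays the log2 difference, SUP-B15 minus BV-173, ran from −0.83 to 0.68, so the probe sets disagreed on its sign and none reached 2-fold. In the RefSeq gene order CASP1 lies between CASP5 and CARD16, and CARD16 encodes a protein that resembles the CARD domain of CASP1. How far CARD16 transcripts add to probe sets marked for shared probes was not tested.

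CASP4, the inflammatory caspase that senses cytosolic lipopolysaccharide and lies in the same cluster on chromosome 11, differed mainly by a lower signal in treated SUP-B15. Its kept probe set, 209310_s_at, read 1650.4 before and 1702 after treatment in BV-173, and 1397 before and 895 after in SUP-B15. The first 3 arrays were close and treated SUP-B15 was lowest, and the log2 responses were 0.04 (BV-173) and −0.63 (SUP-B15). The second probe set, 213596_at, was below the median in all arrays, from 55.9 to 105.4. CASP5, which stands between CASP4 and CASP1 and was not among the 8 genes, was dim and read 103.7 and 17.5 in BV-173 and 113.4 and 53.0 in SUP-B15. In the limma fit to all genes its mean log2 response was −1.22 (SE 0.79, adjusted p = 0.624), which did not pass.

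The initiator caspases of death receptors are neighbours on chromosome 2, in the order CFLAR, CASP10, CASP8. CASP8, the apical protease of the receptor complex, gave different answers by its probe sets. 213373_s_at, the brighter, read 687 and 724.5 in BV-173 and 527 and 501.5 in SUP-B15, log2 responses of 0.07 and −0.07, with the BV-173 arrays a little above the SUP-B15 arrays. 207686_s_at read 148.8 and 51.1 in BV-173 and 159.3 and 62.3 in SUP-B15, so both treated arrays were below both untreated arrays. Its log2 responses were −1.20 and −1.08, each beyond 2-fold, on treated signals under the array medians. Which transcripts each probe set reports was not tested.

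CASP10, the close relative of CASP8, was dim, and 1 of its 4 probe sets was kept. That probe set, 205467_at, read 105.2 and 44.8 in BV-173 before and after treatment, and 117.5 and 51.1 in SUP-B15. The untreated arrays lay just above their medians and the treated arrays well below, in the same order as the dim CASP8 probe set. Both probe sets passed the filter only through the untreated arrays, so their lower treated signals are partly a product of the filter. The log2 responses were −0.90 and −0.91, just short of 2-fold, and with a pseudocount of 1 they were −1.21 and −1.19. Of the 3 probe sets that were not kept, 211888_x_at was also lower in each treated array, at 13.8 and 12.4 in BV-173 and 36.9 and 5.0 in SUP-B15. The other two differed from this in BV-173: 210955_at read 93.6 and 96.3 in BV-173 and 70.6 and 6.9 in SUP-B15, and 210708_x_at was higher in treated than in untreated BV-173, at 55.7 against 6.1.

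CASP9, the initiator of the apoptosome, differed little between arrays by either probe set. 203984_s_at read 255.5 and 358 in BV-173 and 280 and 236 in SUP-B15, with treated BV-173 the highest and treated SUP-B15 the lowest. 210775_x_at read 193.1 and 218 in BV-173 and 166.4 and 158.3 in SUP-B15, in the same direction within each line. Over both probe sets BV-173 had log2 responses of 0.16 to 0.45 and SUP-B15 of −0.22 to −0.06.

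CASP2, the PIDDosome caspase, was near or below the array medians and its probe sets did not give 1 pattern. 208050_s_at read 58.2 in untreated BV-173 and 147.9, 158.8 and 144.9 in the treated BV-173, untreated SUP-B15 and treated SUP-B15 arrays, so untreated BV-173 alone was low (log2 response 1.06, against −0.11 in SUP-B15). 209811_at separated the lines instead, at 61.9 and 52.7 in BV-173 and 158.6 and 136.8 in SUP-B15. 211140_s_at was at 5.1 to 8.1 in 3 arrays and at 133.8 in treated SUP-B15. The direction of the CASP2 response therefore depended on the probe set: in BV-173 it was 1.06 by the brightest and −0.16 by 209811_at. There 211140_s_at gave 0.14, and 34449_at and 209812_x_at, which were not kept, gave −0.17 and −0.06.

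CASP6, an executioner that cuts nuclear lamins, was higher after STI571 in both lines and higher in SUP-B15 than in BV-173. 209790_s_at went from 63.6 to 209.6 with treatment in BV-173, and in SUP-B15 from 364 to 794. The 4 arrays thus formed a single order from untreated BV-173 up to treated SUP-B15, and even treated BV-173 stayed below untreated SUP-B15. The responses were 2.66-fold and 2.11-fold. The second probe set, 211464_x_at, read 29.7, 225.2, 300 and 598 and kept the order, with a larger response in BV-173 (4.61-fold) and a smaller one in SUP-B15 (1.92-fold). Its signal in untreated BV-173 was near the added 24.5, so the size of that response depends on the constant. With a pseudocount of 98 the responses of 209790_s_at were 0.93 and 0.95 on the log2 scale, under 2-fold in both lines.

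GSDME had the widest range of the 8 genes over the 4 arrays, 5.71 log2 units. Its single probe set, 203695_s_at, went from 552 to 157.4 with treatment in BV-173, and in SUP-B15 from 9508 to 3357. Both SUP-B15 arrays were far above both BV-173 arrays, and within each line the treated array was the lower. The signal was 3.17-fold lower after treatment in BV-173 and 2.82-fold lower in SUP-B15, and the log2 responses of −1.67 and −1.50 differed by 0.17. The excess of SUP-B15 over BV-173 was 16.5-fold untreated and 18.6-fold treated, and 0.758% of all genes compared had an untreated difference at least as high. The annotation names 1 probe set for GSDME, so these values could not be set against a second one.

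**Figure D2:**
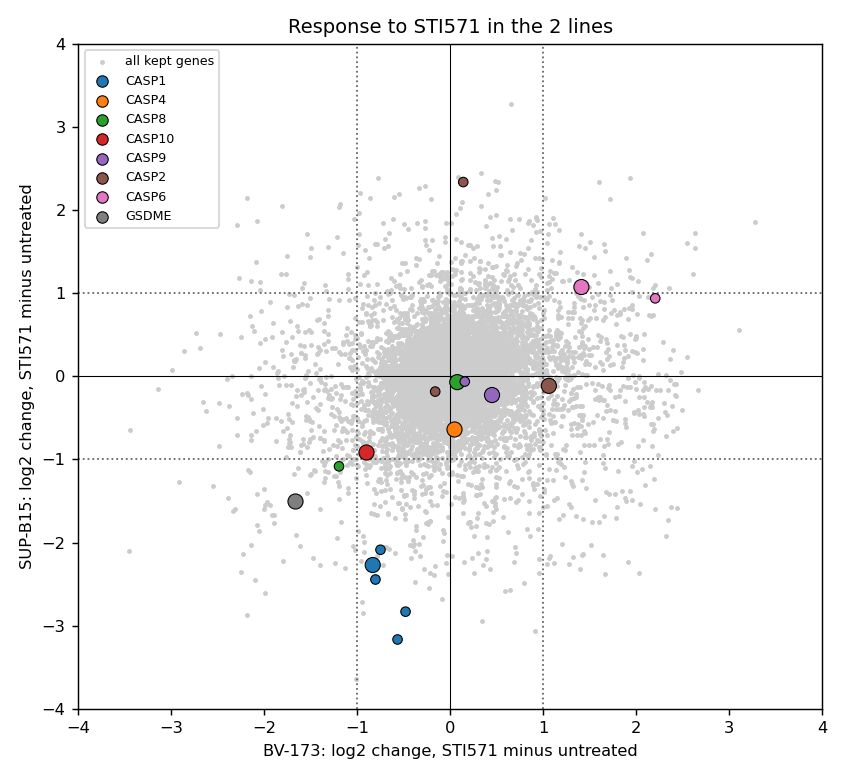
Log2 response to STI571 in BV-173 (horizontal axis) against SUP-B15 (vertical axis). Grey points are the 7916 genes compared, 1 of them outside the axes; coloured points are the 17 kept probe sets of the 8 genes, the large point of a colour being the gene's brightest. Dotted lines mark 2-fold. GSDME at −1.67 and −1.50 and the dimmer CASP8 probe set lie in the lower left corner, the brightest CASP6 probe set in the upper right, and the 5 CASP1 points low with BV-173 values of −0.83 to −0.48.

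By the brightest probe set of each gene, GSDME was at least 2-fold lower after STI571 in both lines and CASP6 at least 2-fold higher in both. In BV-173, 1 of the 8 genes was at least 2-fold lower (GSDME), where 4.6% of all 7916 genes were, and 2 were at least 2-fold higher (CASP2 and CASP6), against 6.91%. In SUP-B15, 2 were at least 2-fold lower (CASP1 and GSDME), against 5.68%, and 1 higher (CASP6), against 4.08%. Lower in both lines at least 2-fold were 0.846% of all genes, and higher in both 0.783%. The genes were chosen with these values known, so nothing is read from the counts. The 8 genes had a median response of 0.06 (BV-173) and −0.43 (SUP-B15), beside 0.05 and −0.01 over all genes. CASP2, CASP4, CASP8 and CASP9 had opposite signs in the lines, as did 44.7% of all genes.

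Between the untreated lines, CASP1, CASP2, CASP6 and GSDME were at least 2-fold higher in SUP-B15 (13.8% of all genes were) and 0 of the 8 were at least 2-fold lower (10.2%). In the treated arrays CASP6 and GSDME remained at least 2-fold higher in SUP-B15 (13.1% of all genes) and 0 were lower (14% of all genes). The CASP6 excess was 4.41-fold untreated and 3.50-fold treated by its brightest probe set, and 5.99-fold and 2.49-fold by the other. For CASP2 the brightest probe set was level in the treated arrays, but 209811_at was 2.09-fold and 211140_s_at 4.86-fold higher in treated SUP-B15. Both passed the filter only through SUP-B15 arrays, 211140_s_at through the treated one alone, so their excess there is partly a product of the filter. CASP4, CASP8, CASP9 and CASP10 differed by less than 2-fold between the lines in either state by every kept probe set. The summed signal of the 4 measured myeloid markers also differed between the lines, at 82.3 and 109.5 in BV-173 and 413 and 253 in SUP-B15, while 0 of the 4 reached the median in all arrays. MPO (8.3 to 196.2), CSF1R (11.2 to 156.4) and CD14 (3.8 to 9.8) were higher in both SUP-B15 arrays. LYZ was not, at 59.0 and 6.3 in BV-173 and 51.5 and 3.2 in SUP-B15, and it was lower in each treated array. The part of these markers in the differences of CASP1 and IL1B was not tested.

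**Figure D3:**
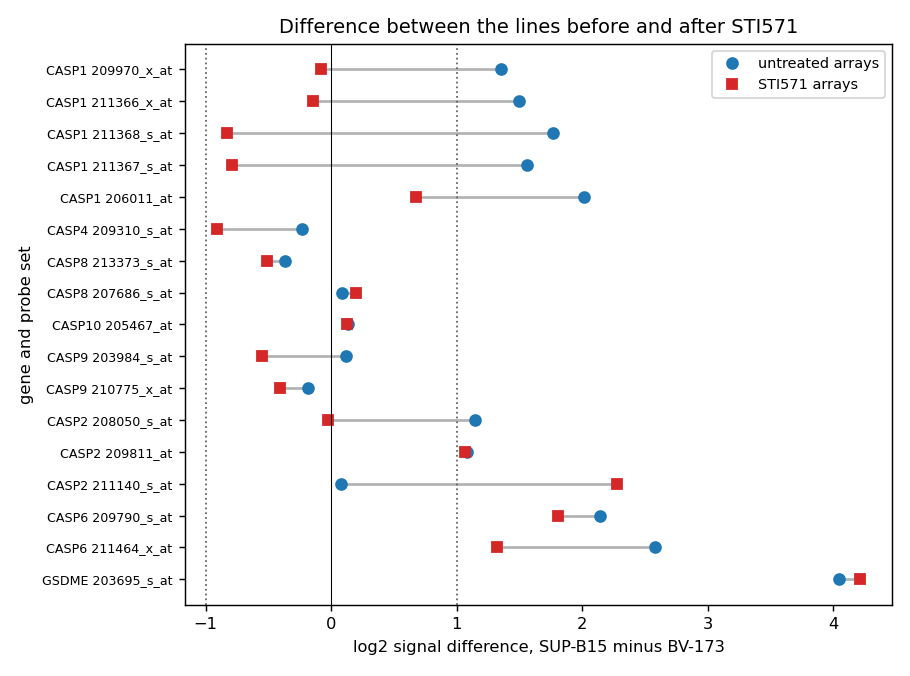
Log2 signal difference, SUP-B15 minus BV-173 (horizontal axis), for each of the 17 kept probe sets (vertical axis), in the untreated arrays (blue circles) and the STI571 arrays (red squares). Dotted lines mark 2-fold. The 5 CASP1 probe sets move from 1.35 to 2.01 untreated to −0.83 to 0.68 treated, while GSDME stays at 4.05 and 4.22.

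The sequence around the start site is shown for GSDME and CASP6, which were past 2-fold in both lines in opposite directions, and for CASP4, the CASP1 neighbour that stayed under 2-fold. RefSeq start-site windows of GRCh38.p14, 250 bases before to 50 after the start, were matched by symbol for 6 of the 8 genes. They were searched on both strands for 7 motifs: the STAT site TTCNNNGAA, the ETS site CCGGAAGT, the AP-1 site TGANTCA, the FOXO site GTAAACA, the E-box CACGTG, the GC box GGGCGG and the TATA box TATAAA. Capitals mark each match, and the windows run 5′ to 3′ along the gene.
GSDME, chr7:24757415-24757714, minus strand: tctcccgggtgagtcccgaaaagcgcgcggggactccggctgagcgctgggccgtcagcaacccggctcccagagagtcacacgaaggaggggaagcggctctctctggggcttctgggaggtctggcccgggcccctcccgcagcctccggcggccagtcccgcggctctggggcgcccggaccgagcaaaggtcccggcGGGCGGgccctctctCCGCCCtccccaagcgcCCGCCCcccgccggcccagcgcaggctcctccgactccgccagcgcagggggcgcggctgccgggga
CASP6, chr4:109703396-109703695, minus strand: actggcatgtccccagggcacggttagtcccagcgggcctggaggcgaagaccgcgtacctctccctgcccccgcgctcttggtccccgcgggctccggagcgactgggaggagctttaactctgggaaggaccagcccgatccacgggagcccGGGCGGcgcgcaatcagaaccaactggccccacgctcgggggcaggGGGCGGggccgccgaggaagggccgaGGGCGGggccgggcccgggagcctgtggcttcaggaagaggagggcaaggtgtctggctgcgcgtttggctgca
CASP4, chr11:104968525-104968824, minus strand: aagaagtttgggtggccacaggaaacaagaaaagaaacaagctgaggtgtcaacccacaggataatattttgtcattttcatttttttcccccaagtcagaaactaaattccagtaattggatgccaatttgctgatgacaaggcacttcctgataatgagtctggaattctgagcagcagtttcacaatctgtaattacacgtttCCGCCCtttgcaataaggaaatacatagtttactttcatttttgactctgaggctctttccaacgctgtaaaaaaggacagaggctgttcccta

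In these 3 windows the GC box was the only one of the 7 motifs with a match, 3 times each for GSDME and CASP6 and once for CASP4, and no matches overlapped. Of 35116 windows of this length, 45% hold a GC box, so a match sets none of these genes apart. The windows of GSDME and CASP6 are GC-rich, at 77% and 72% G and C, with 35 and 28 CG dinucleotides, while that of CASP4 has 39.7% and 3; the median window has 58.7%. CASP8 has 3 start-site windows, and among their matches a STAT site lies in 1, as in 7.66% of all windows, and an AP-1 site in each of the other two, as in 7.71%. The files hold no measurement of binding at these sites, and a motif not found says only that these letters are not in the window.

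The genes around the caspases were then taken from a list of 57 symbols in 7 roles, none of them among the 8 genes. The annotation gives a probe set of its own to 45 of them, and 40 passed the filter. The limma fit took treatment and cell line as terms over the 4 arrays, with Benjamini-Hochberg adjustment over 7916 genes. It called 1 of the 40 lower after STI571 and 0 higher, where 1.62% of all genes were called lower and 1.4% higher. At an unadjusted p under 0.05 there were 3 (7.5%), against 12.3% of all genes. The list's median mean response was −0.01. This fit has 1 residual degree of freedom and takes its error from the intensity trend over genes; without the trend, or without the cell line term, limma called 0 of all 7916 genes, with 658 and 70 at an unadjusted p under 0.05 (1 of the 40 in each).

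The gene called was IL1B, which encodes interleukin-1 beta, the cytokine precursor that CASP1 cuts. Its signal went from 216.5 to 165.2 with treatment in BV-173, and in SUP-B15 from 1634 to 540. As for CASP1, untreated SUP-B15 was the high array. IL1B fell by a mean of 0.95 on the log2 scale (SE 0.28, adjusted p = 0.0239 by limma), made up of −0.35 (BV-173) and −1.55 (SUP-B15), and the second probe set gave −1.08 and −2.34. The call ended with a common median for all arrays (adjusted p = 0.0654), with no filter (0.0814), and in both fits that called no gene at all, without the intensity trend (0.621) and without the cell line term (0.9999).

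In the other inflammasome genes 0 of 10 were called for STI571. The sensor NLRP3 was dim in BV-173 and read 187.7 in untreated and 73.1 in treated SUP-B15 (mean log2 response −0.48, limma adjusted p = 0.935). The sensor NLRP1 had a mean response of −0.32 (adjusted p = 0.897). In the mitochondrial arm 0 of 6 were called. CYCS, the cytochrome c that assembles the apoptosome with CASP9, had log2 responses of −0.80 and −0.50 (limma adjusted p = 0.0695) and was called with quantile normalization (0.00628), a common median (0.0207) and the 75th percentile filter (0.0454). DIABLO, an antagonist of caspase inhibitors, had 0.16 and 0.17, and the protease HTRA2 0.06 and −0.36.

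Of the caspase inhibitors 3 were measured and 0 were called. BIRC2 had log2 responses of 0.82 and 0.38 (limma adjusted p = 0.098), BIRC5 −0.28 and 0.67, and NAIP 0.19 and −0.24. The second probe sets gave −0.35 and −0.17 for BIRC5, and 1.92 and 0.10 for NAIP. The signs of both genes in SUP-B15 therefore depended on the probe set, as did the size of the NAIP response in BV-173. In the death receptor group 0 of 8 were called, and the member with the highest mean response was the receptor FAS, at −0.23 (BV-173) and 1.52 (SUP-B15). The SUP-B15 signals of FAS, 8.4 and 70.1, were both under the array medians. CFLAR, the inhibitor of CASP8 that lies beside CASP10, read 112.5 and 190.0 in BV-173 and 420 and 534 in SUP-B15. Its mean log2 response was 0.49 (SE 0.33, limma adjusted p = 0.651), and its second probe set gave 1.74 and −0.49. TNFSF10, the ligand TRAIL, had 0.89 and −0.13. It was dim, at 49.4 and 112.7 in BV-173 and 93.6 and 83.2 in SUP-B15, and passed the filter through treated BV-173 alone.

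The PIDDosome partners of CASP2 were measured for CRADD and PIDD1, with mean log2 responses of −0.22 and −0.23, and neither was called. The second probe set of PIDD1 gave −0.75 (BV-173) and −0.70 (SUP-B15). Of the 9 substrates and nucleases of executioner caspases 0 were called for STI571. GSN, an actin-severing protein cut by executioner caspases, had −1.19 and −0.27 (limma adjusted p = 0.545). The BV-173 signals of GSN, 89.5 and 25.6, were both under the array medians. LMNA, the lamin that CASP6 cuts, had 1.26 and −0.40, and its second probe set −1.46 and −0.12, so its direction in BV-173 depended on the probe set. ACIN1, a chromatin-condensing substrate, had 0.18 and 0.57.

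**Figure D4:**
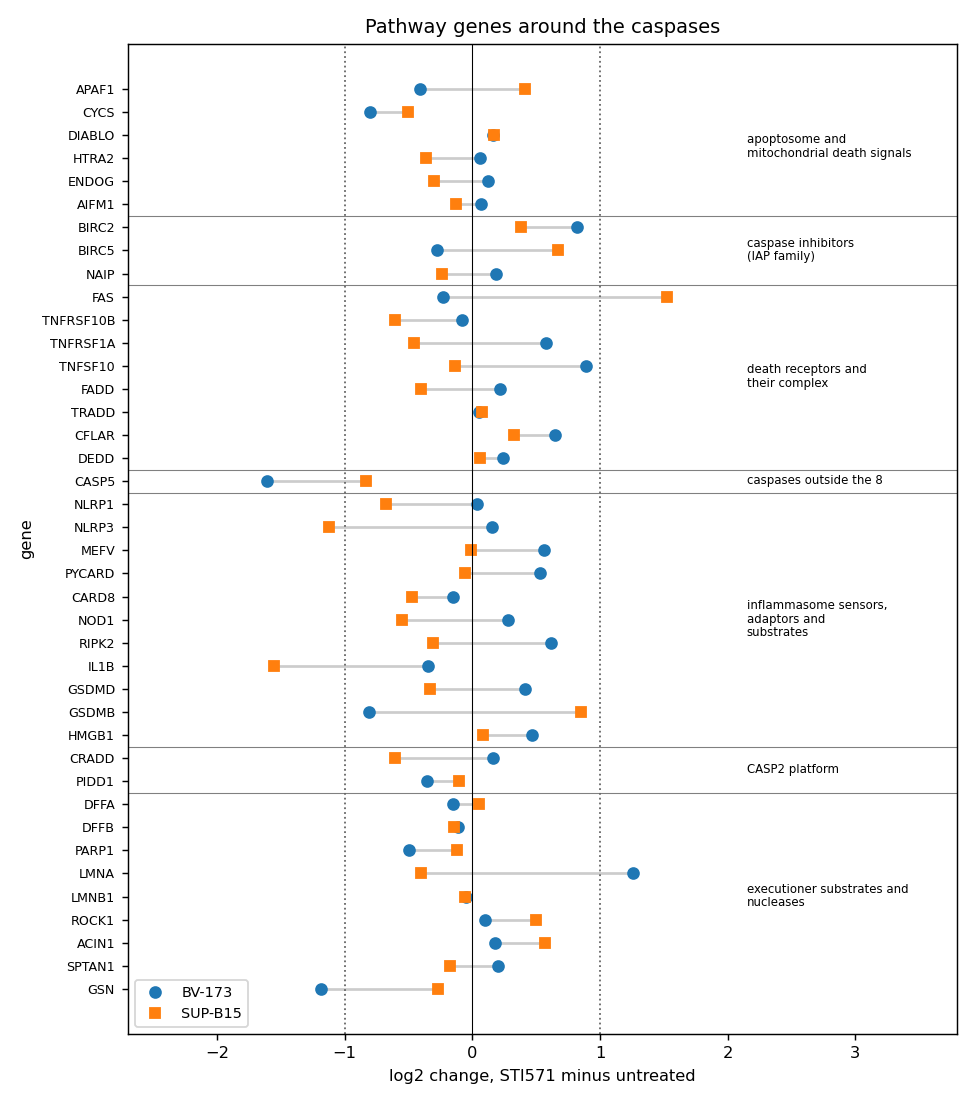
Log2 response to STI571 (horizontal axis) of the 40 measured pathway genes (vertical axis, grouped by role) in BV-173 (blue circles) and SUP-B15 (orange squares). Each point is the difference of 2 arrays. Dotted lines mark 2-fold. Most pairs lie within 2-fold on either side of 0, and IL1B at −0.35 and −1.55 is the gene that limma called.

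The line difference in the same fit called 14 of the 40, 7 higher in SUP-B15 and 7 lower, where 14.4% of all genes were called in each direction. IL1B was higher in SUP-B15 by 2.18 (SE 0.28, limma adjusted p = 1.16e-13) and CFLAR by 1.54 (SE 0.33, adjusted p = 3.57e-05). The apoptosome scaffold APAF1, named after its value was seen, was higher by 1.02 (SE 0.35, adjusted p = 0.014). The death receptor gene TNFRSF10B, also chosen after its values were seen, read 4.1 and 2.5 in BV-173 and 373 and 236 in SUP-B15 (limma adjusted p = 1.78e-05). That probe set passed the filter only through the SUP-B15 arrays, so its excess there is partly a product of the filter. Of the 3 probe sets of TNFRSF10B no other passed. FAS was lower in SUP-B15 by a log2 difference of −2.11 (SE 0.62, limma adjusted p = 0.00369), at 8.4 and 70.1 against 235.8 and 197.7 in BV-173. This FAS probe set passed only through the BV-173 arrays, so that difference too is partly a product of the filter. PYCARD, the adaptor that joins inflammasome sensors to CASP1, was lower, at a log2 difference of −0.97 (SE 0.24, limma adjusted p = 0.00042). CASP1 itself went the other way in the untreated arrays, while in the treated arrays its probe sets disagreed on the sign. PYCARD was chosen after its values were seen. Without the intensity trend 5 were called higher in SUP-B15 and 0 lower.

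The genes nearest to GSDME over the 4 arrays, by the Euclidean distance of their 4 centred log2 signals, were the zinc finger gene ZNF423, the metalloproteinase inhibitor gene TIMP1 and RGCC. ZNF423, at a distance of 0.74, read 145.6 and 49.4 in BV-173 and 1933 and 790.0 in SUP-B15. TIMP1, at 0.83, read 123.9 and 5.7 in BV-173 and 1356 and 950 in SUP-B15, and RGCC, at 0.93, read 25.9 and 2.8 and then 563 and 253. RGCC in both BV-173 arrays and TIMP1 in treated BV-173 lay near or below the added constant. The sizes of their BV-173 responses depend on it. All 3 genes were higher in both SUP-B15 arrays and lower in each treated array than in its untreated partner. They were picked as the nearest to GSDME in these same arrays, so the shared pattern follows largely from the choice. Over 4 arrays such a likeness is a description of these arrays alone.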

How the data were processed

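RNA from 4 cultures was measured on 1 Affymetrix array each. An RNeasy kit gave the total RNA, which was labelled with biotin, per the labels' protocols, and the submitters' processing notes name GCOS 1.3. The deposited unit is signal intensity, linear, with 1 value per probe set; the 2%-trimmed means were 500.2 in all arrays, so the authors had scaled each array. How probes were summarised is not given in the sources used here, nor is the target of that scaling, and detection calls were not used here. Precision is limited by the number of arrays.

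Of 22277 probe sets, 62 were controls, 19064 had 1 symbol, 1043 several and 2108 none; only those with 1 were named. All 8 genes matched RefSeq by Entrez ID. Signals were compared as log2(signal + 24.5), the 25th percentile of all signals, and the probe set with the highest mean log2 value stood for a gene. Tests of other genes used limma 3.58.1 in R 4.3.3, with an intensity trend, two-sided, at an adjusted p of 0.05. A run on simulated data drew its noise from that same trend, so it could not check the trend itself. P-values rest on an error taken from the intensity trend over genes in these 4 arrays. With 1 array per group they measure no spread between cultures, nor the spread of a single gene.

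The members and lists were chosen with earlier results of these data known. Named are all 8 genes, list genes called for STI571 or past 2-fold in both lines in 1 direction, up to 3 per role by mean response, and the 3 nearest to the gene of widest range. Alternatives were quantile normalization, a common median, pseudocounts of 1 and 98, no filter, a 75th percentile filter, the mean of probe sets, unmarked probe sets alone, no cell line or treatment term, no trend, and thresholds of 1.5-fold and 3-fold.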

Additional observations from a re-analysis of the deposited data

Results flagged for a closer look

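For 4 of the 8 genes the brightest probe set responded to STI571 in opposite directions in the lines, each on 1 array per state. The response in SUP-B15 minus that in BV-173 was −1.17 log2 units for CASP2, −0.67 for CASP4, −0.67 for CASP9 and −0.14 for CASP8. The difference was not tested for any of them, and 44.7% of all genes had opposite signs. For CASP8 the signs exchanged with a common median (−0.09 in BV-173 and 0.04 in SUP-B15), for CASP4 the BV-173 response became −0.13 with a common median, and for CASP2 the unmarked probe set 209811_at gave negative responses in both lines.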

How the results depend on the processing

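With 1 array per group no array could be left out within a group, and the dim genes CASP2 and CASP10 had signals close to the added 24.5, which limits their values. The labels give no replicate numbers; treated and untreated arrays are paired by cell line through a term of the fit, and the fit without it is the unpaired alternative. A common median moved the median response of all genes of BV-173 from 0.05 to −0.11, and that of SUP-B15 from −0.01 to 0.08.

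The count of genes at least 2-fold lower in BV-173, 1 as reported, became 2 with quantile normalization, 3 with a common median, 2 with a pseudocount of 1, 0 with unmarked probe sets alone and 3 at 1.5-fold. The count higher in BV-173, 2 as reported, became 1 with quantile normalization, a common median, the 75th percentile filter and the mean of probe sets, and 0 with a pseudocount of 98, with unmarked probe sets and at 3-fold. In SUP-B15 the count lower, 2 as reported, became 3 with a pseudocount of 1, 1 with unmarked probe sets, 4 at 1.5-fold and 1 at 3-fold. The count higher there, 1 as reported, became 0 with a pseudocount of 98, with unmarked probe sets and at 3-fold. The count higher in untreated SUP-B15 than in BV-173, 4 as reported, became 2 with unmarked probe sets and at 3-fold. It was 3 with the mean of probe sets, a pseudocount of 98, the common median or quantile normalization, where CASP2 went under 2-fold. It was also 3 with the 75th percentile filter, which leaves CASP2 out. In the treated arrays the count higher, 2 as reported, became 3 with the mean of probe sets and 1 with unmarked probe sets. The count lower, 0 as reported, became 1 at 1.5-fold. Unmarked probe sets exist for 3 of the 8 genes that passed the filter (CASP1, CASP2 and CASP10), and the 75th percentile filter leaves 5, so those counts are over fewer genes.

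The CASP2 response in BV-173 turned from 1.06 to −0.16 with unmarked probe sets alone, which use another probe set. Of the other comparisons of single log2 values of the 8 genes under an alternative, 195 kept their direction and their side of 2-fold, 10 went under 2-fold, 7 went past it, 2 of them (CASP2 between the treated lines, at 1.11 with the mean of probe sets and 1.06 with unmarked probe sets) with a change of sign, and 11 changed sign but stayed under 2-fold.

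For pathway genes, the count called lower for STI571, 1 as reported, became 2 with quantile normalization and the 75th percentile filter, and 0 with no filter, and also 0 without the cell line term and without the intensity trend, where 0 of all 7916 genes were called (70 and 658 at an unadjusted p under 0.05). With a common median it stayed 1 but the gene was CYCS, not IL1B. The count called higher in SUP-B15, 7 as reported, became 8 with quantile normalization and the mean of probe sets. It became 5 with unmarked probe sets and without the trend, and 4 with the 75th percentile filter, which leaves 21 pathway genes. The count called lower, 7 as reported, became 6 with quantile normalization, a common median, the 75th percentile filter and the mean of probe sets. Without the treatment term it was 5, with unmarked probe sets 2 and without the trend 0. Except where the set of genes or arrays differs by construction, the cause was not tested.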
